A study of Mus musculus with 26 samples.

Results

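The 7 genes Cyp2b9, Cyp2b13, Cyp3a41a, Cyp2a4, Sult2a1, Sult2a2 and Hao2 are female-biased liver genes that are held down in males by the pulsed release of growth hormone. They were chosen by name with earlier results of these data known, and all 7 were found among the 36883 gene names counted in mouse liver. Bulk RNA was sequenced from livers of Eµ-MYC mice, in which an immunoglobulin heavy chain enhancer drives MYC in B-lineage cells and B-cell tumours can arise. All 26 mice carried this transgene, and no mouse without it was analysed here. The mice were kept under 12 h of light and 12 h of dark (12:12) or under a chronic jet lag schedule (CJL) that lasted 8 weeks, and the labels give no duration for 12:12. There were 8 females and 6 males under 12:12, and 8 females and 4 males under CJL. The labels give no age, strain background or hour of sampling, and whether each library came from a separate mouse rests on the animal numbers in the titles. The series asks what CJL does to the liver transcriptome, and sex offers a second comparison.

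In rodents the pituitary secretes growth hormone in spaced pulses in males and almost continuously in females. Each pulse activates the transcription factor STAT5b in hepatocytes, and the male pattern sustains male-biased genes such as the major urinary proteins while silencing a set of female-biased genes. In male mice that lose the pituitary, STAT5b or the hepatocyte factor HNF4A, several of these silenced genes become active. CUX2, a transcription factor made in female liver, and BCL6, a repressor more abundant in male liver, are known to act in this circuit. Most of the 7 genes encode enzymes of steroid, bile acid and drug metabolism.

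Cyp2b9 (chr7:26173411-26210661, plus strand, ENSMUSG00000040660.6) and Cyp2b13 (chr7:26061497-26096197, plus strand, ENSMUSG00000040583.8) encode cytochromes P450 of the CYP2B family, which oxidise steroids and drugs. Cyp2a4 (chr7:26307169-26315088, plus strand, ENSMUSG00000074254.4) encodes a steroid 15-alpha-hydroxylase. Cyp3a41a (chr5:145694049-145720136, minus strand, ENSMUSG00000075551.4) encodes a female-specific member of the CYP3A family. Sult2a1 (chr7:13796246-13837409, minus strand, ENSMUSG00000078798.4) and Sult2a2 (chr7:13733505-13779636, plus strand, ENSMUSG00000070811.6) encode sulfotransferases that sulfonate hydroxysteroids and bile acids. Hao2 (chr3:98874521-98893239, minus strand, ENSMUSG00000027870.8) encodes a peroxisomal hydroxyacid oxidase. Coordinates are of the whole gene in the GENCODE annotation of GRCm38. Except for Cyp3a41a and Hao2, the genes lie on chromosome 7, and Cyp2b9, Cyp2b13 and Cyp2a4 lie near each other there.

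RefSeq promoter windows on GRCm38.p6, which run from 250 bases before the start site to 50 bases after it, were found for 5 of the 7 genes. Those of Cyp2b9 (chr7:26173159-26173458, plus strand) and Cyp2b13 (chr7:26061245-26061544, plus strand) are shown because these genes moved together in the results below. The windows shared 298 of 300 bases, and the capitals mark the 2 that differ, T48C and C104T. In these substitutions the Cyp2b9 base comes first and positions count from 1 at the 5′ end of the window. The window of Cyp3a41a (chr5:145720087-145720386, minus strand) is shown as that of a female-biased gene that did not move with them, with the capitals marking a match to CAAAGTCCA, a core motif of HNF4.
Cyp2b9: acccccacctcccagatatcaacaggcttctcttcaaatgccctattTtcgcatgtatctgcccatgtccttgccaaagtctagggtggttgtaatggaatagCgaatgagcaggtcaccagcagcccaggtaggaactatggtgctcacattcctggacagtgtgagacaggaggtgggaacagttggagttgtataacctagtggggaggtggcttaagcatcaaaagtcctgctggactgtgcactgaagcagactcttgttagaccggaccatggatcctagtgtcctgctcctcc
Cyp2b13: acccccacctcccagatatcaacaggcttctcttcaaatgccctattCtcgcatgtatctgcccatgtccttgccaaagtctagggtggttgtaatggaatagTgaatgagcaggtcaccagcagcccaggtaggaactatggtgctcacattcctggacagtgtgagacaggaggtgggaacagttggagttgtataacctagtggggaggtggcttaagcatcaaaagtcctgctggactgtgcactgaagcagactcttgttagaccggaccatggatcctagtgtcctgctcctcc
Cyp3a41a: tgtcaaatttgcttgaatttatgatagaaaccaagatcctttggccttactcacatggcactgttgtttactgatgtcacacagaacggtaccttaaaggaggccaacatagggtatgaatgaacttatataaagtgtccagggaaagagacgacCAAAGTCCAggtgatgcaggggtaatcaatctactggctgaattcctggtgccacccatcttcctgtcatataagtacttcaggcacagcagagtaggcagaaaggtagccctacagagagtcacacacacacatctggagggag
The match in Cyp3a41a starts 95 bases before the start site, and this motif occurs on either strand in 0.475% of the 32851 windows in the table. No window of the other 4 genes holds it in these letters. None of the 5 windows holds TTCNNNGAA, the STAT motif found in 8.3% of all windows, or ATCGAT, a motif of the HNF6 and CUX family found in 0.925%. Both strands were searched, no matches overlapped, and a match is a run of letters, not a measured binding site.

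Each library held 45364552 to 50242014 counts, and levels are given as CPM, a gene's count divided by the library total and scaled to 1e6. A gene with no count could still have been present at up to 3 counts, which is at most 0.0661 CPM in these libraries. This bound covers counting error only. Xist and the Y-linked genes matched the labelled sex in all 26 libraries. Cd79a, which encodes a chain of the B-cell receptor complex, stood at 1.28 to 2.95 CPM in 18 libraries and at 14.5 to 144 CPM in the other 8. Those 8 were 5 of the 16 female and 3 of the 10 male libraries, and 8 CPM was used to set them apart. These classes come from a measured marker and are not groups of the study. Hepatocyte markers were high in every library, with Alb at 10.005% to 22.1% of counts.

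In the 16 female libraries all 7 genes were expressed throughout, at levels that differed between genes. Per kilobase of exon the female median was 1280.1 CPM for Cyp2a4, 716 for Cyp3a41a, 456 for Sult2a2, 389 for Cyp2b9, 315 for Sult2a1, 198 for Cyp2b13 and 19.1 for Hao2. Hao2 was thus by far the lowest of the set. In males the genes split by how completely they were silent: Sult2a1 and Sult2a2 were at or near 0, Hao2 was near the detection limit, and Cyp2b9, Cyp3a41a and Cyp2a4 were low but counted in every library.

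**Figure D1:**
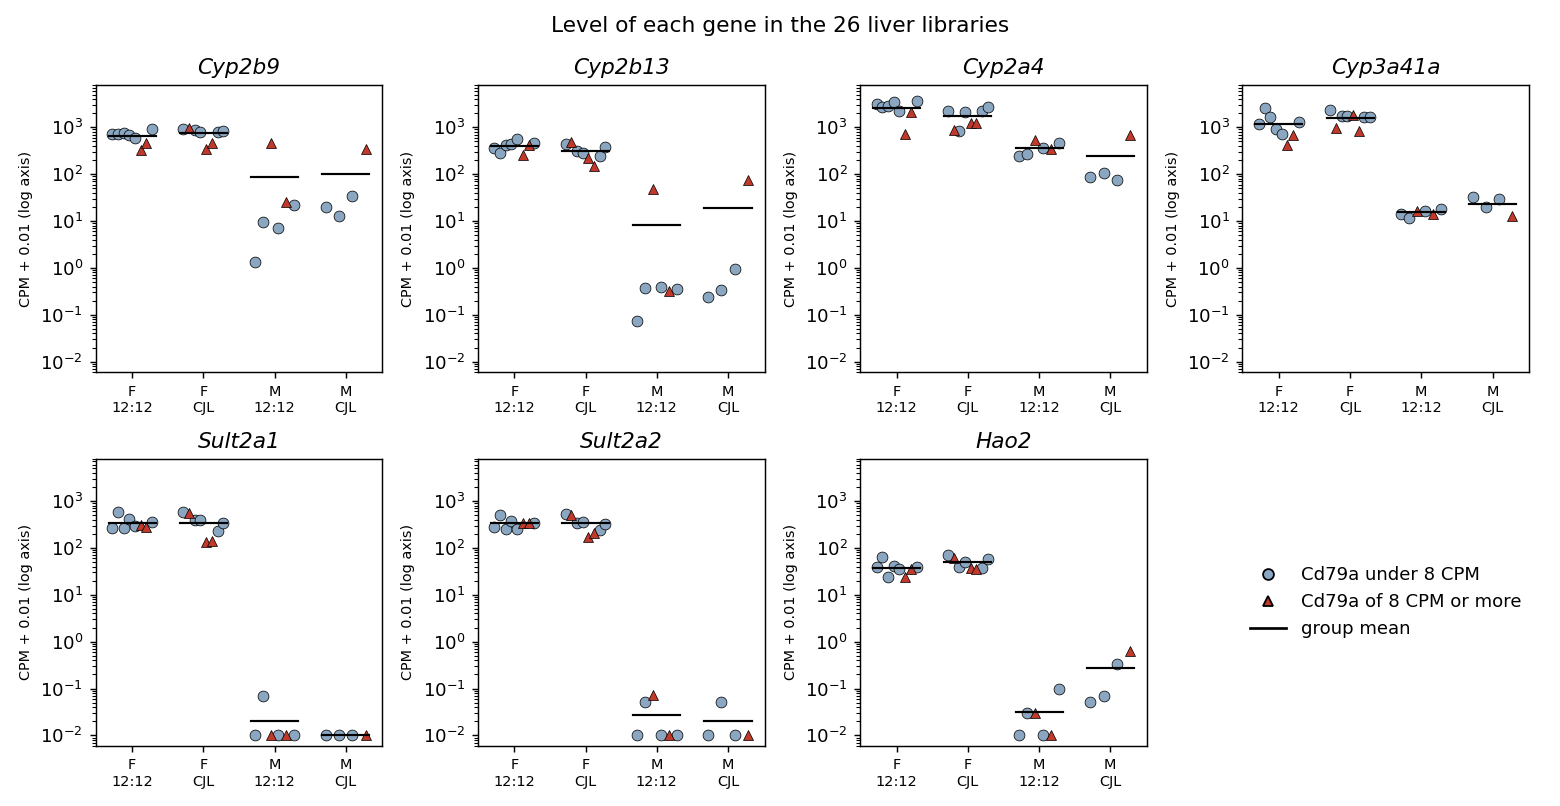
Level of each of the 7 genes in each of the 26 libraries, as CPM plus 0.01 on a log axis, by sex and lighting (CJL, chronic jet lag; bars, group mean). Triangles mark the 8 libraries with Cd79a of 8 CPM or more: 2 male triangles stand far above the other males for Cyp2b9 and Cyp2b13, while the highest male is at 32.2 CPM for Cyp3a41a and at 0.0609 CPM for Sult2a1.

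Cyp2b9 was at 323, 690 and 931 CPM (lowest, median and highest) in the 8 females under 12:12 and at 349.7, 830.2 and 958 CPM in the 8 under CJL. The male libraries 1 to 6 under 12:12 held 1.29, 9.62, 454, 7.25, 25.97 and 21.5 CPM, and libraries 5 to 8 under CJL held 19.96, 12.9, 34.4 and 336 CPM. Male 3 under 12:12 and male 8 under CJL therefore reached the female range, since the lowest female stood at 323 CPM, and the other 8 males did not. Cyp2b13 was at 259, 422 and 553 CPM in females under 12:12 and at 148, 293 and 480.2 CPM under CJL. In males under 12:12 it held 0.0626, 0.365, 47.1, 0.389, 0.305 and 0.353 CPM, and under CJL 0.230, 0.325, 0.936 and 74.7 CPM. The same 2 males stood out, here below every female, and the other 8 stayed under 1 CPM.

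Cyp2a4 was at 719.6, 2746 and 3716 CPM in females under 12:12 and at 828, 1703 and 2738 CPM in females under CJL. In males under 12:12 it held 242, 267, 543, 356, 339.7 and 468 CPM, and under CJL 87.2, 106, 75.3 and 683 CPM. No male reached the lowest female, although male 8 under CJL came close to it, and that library stood far from the other 3 males under CJL. Cyp3a41a was at 408, 1032 and 2577 CPM in females under 12:12 and at 825, 1681 and 2310.1 CPM under CJL. In males it held 11.8, 15.3 and 18.3 CPM (lowest, median and highest) under 12:12 and 32.2, 19.7, 29.0 and 13.1 CPM under CJL. The males with high Cd79a did not stand above the others, and male 8 was the lowest of the males under CJL. The sexes did not overlap.

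Sult2a1 was at 259, 295 and 570.2 CPM in females under 12:12 and at 130.5, 366 and 584 CPM under CJL. In males it was counted in only 1 library, male 2 under 12:12, with 3 counts. Sult2a2 was at 249, 345 and 497 CPM in females under 12:12 and at 171, 327 and 525.5 CPM under CJL, and no male library held more than 3 of its counts. Pooled over the males under 12:12, 3 counts of Sult2a1 set a female to male ratio of 32992 with a 95% counting interval of 11289 to 159983. Under CJL no male count was found in 4 libraries. Taking 3 counts over the male group as the limit, females were at least 21980.3-fold higher there. The 95% counting interval used for 12:12 gave a lower bound of 17875-fold under CJL. These ratios pool the mice of a group and cover counting error only. Hao2 was at 23.6, 38.0 and 63.6 CPM in females under 12:12 and at 36.3, 44.4 and 72.1 CPM under CJL. It held 0, 1, 1, 0, 0 and 4 counts in the males under 12:12 and 2, 3, 15 and 30 counts in those under CJL. All male libraries thus lay far below the females, and the highest, at 0.635 CPM, was again male 8 under CJL.

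Female against male levels were tested in a negative binomial model over all 26 libraries, with 16892 genes tested and p-values adjusted over all of them. The 7 genes were chosen as female-biased with earlier results of these data known. Their counts called higher in females, under either lighting and in any subset, are therefore not an independent test. Under 12:12, 6 of the 7 genes were higher in females, against 2.01% of all genes tested called higher. Their median log2 fold change was 6.18, beside 0.06 over all genes. Cyp3a41a was higher by 6.18 ± 0.43 (log2, SE; edgeR adjusted p = 2.15e-10), Cyp2a4 by 2.72 ± 0.45 (edgeR adjusted p = 0.00059) and Cyp2b13 by 5.63 ± 1.39 (edgeR adjusted p = 0.0217). Sult2a1, Sult2a2 and Hao2 were also called higher, and their fitted fold changes of 14.60, 13.94 and 10.57 depend on how near-zero male counts are treated. Cyp2b9 had a log2 fold change of 2.91 ± 0.92 and missed the threshold (edgeR adjusted p = 0.0811). That call rested on male 3 under 12:12, without which Cyp2b9 was higher by 5.54 (edgeR adjusted p = 5.89e-05), and it also passed without male 8 under CJL (adjusted p = 0.0449) and with Cd79a as a covariate (4.12, adjusted p = 0.0108). Cyp2b13 was 10.27 higher without male 3, and its call was lost without male 4 under 12:12 (adjusted p = 0.0544).

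Under CJL, 5 of the 7 genes were higher in females, against 0.87% of all genes, with a median log2 fold change of 5.88 beside -0.07 over all genes. Cyp3a41a was higher by 5.88 ± 0.51 (edgeR adjusted p = 2.69e-08) and Cyp2a4 by 2.81 ± 0.54 (edgeR adjusted p = 0.00397), and Sult2a1, Sult2a2 and Hao2 were called as well. Cyp2b13 had a log2 fold change of 4.07 ± 1.53 (edgeR adjusted p = 0.187) and Cyp2b9 one of 2.89 ± 1.09 (edgeR adjusted p = 0.189). Without male 8 under CJL both passed, at 9.03 (adjusted p = 0.00506) and 4.82 (adjusted p = 0.0259), and the difference of Cyp2a4 was 4.04. With Cd79a as a covariate both passed, at 7.13 for Cyp2b13 (edgeR adjusted p = 0.0101) and 4.04 for Cyp2b9 (adjusted p = 0.0328), and DESeq2 called Cyp2b13 at 4.06 (adjusted p = 0.0237). Both also passed without male 3 under 12:12, with nearly the same fold changes (adjusted p = 0.0344 and 0.0352).

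Without the 8 libraries with high Cd79a, all 7 genes were higher in females under both lightings. There 4.6% of the 16431 genes tested were called higher under 12:12 and 5.54% under CJL. Cyp2b9 was then higher by 6.10 ± 0.58 under 12:12 and 5.05 ± 0.63 under CJL. Cyp2b13 was higher by 10.37 ± 0.45 and 9.19 ± 0.49, and Cyp2a4 by 3.05 ± 0.28 and 4.34 ± 0.34. Cyp3a41a moved little, at 6.40 ± 0.36 and 5.91 ± 0.40.

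**Figure D2:**
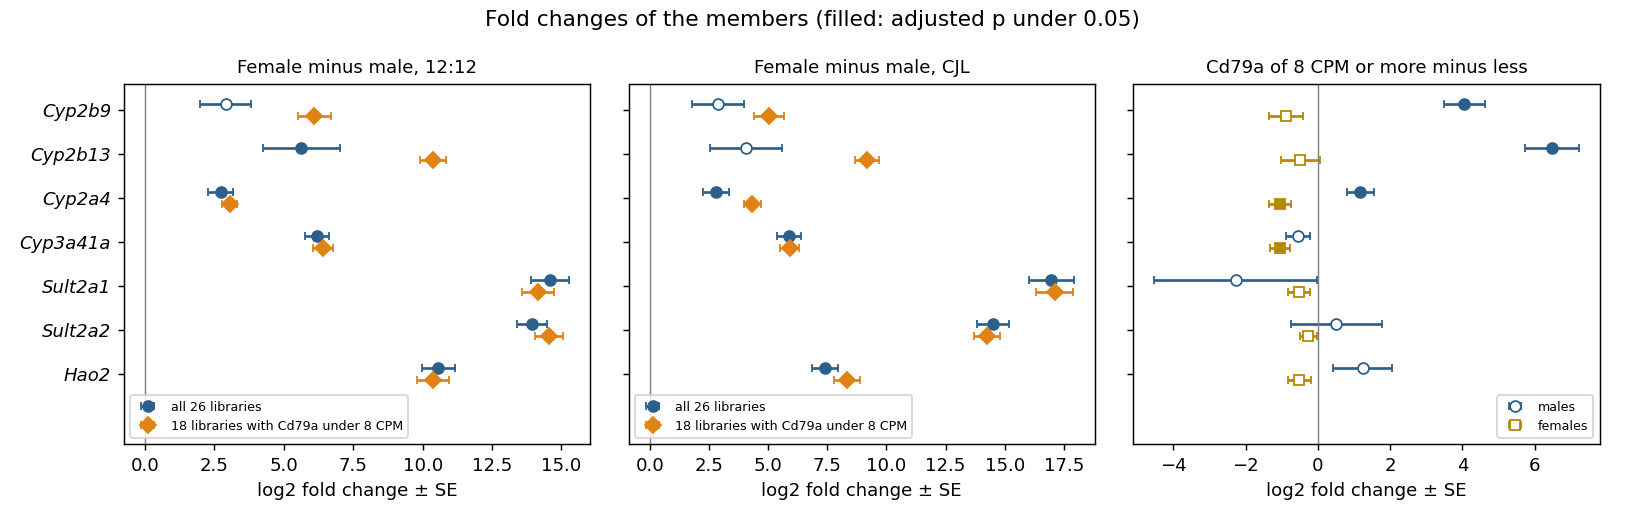
Log2 fold change with its standard error for each gene, for females minus males under 12:12 and under CJL, with all 26 libraries and with the 18 of low Cd79a, and for libraries of high minus low Cd79a within each sex (filled symbols, adjusted p under 0.05). Cyp2b9 under 12:12 moves from 2.91 to 6.10 when the 8 libraries are left out, and the fitted values of Sult2a1, Sult2a2 and Hao2 rest on male counts near 0.

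Across the other female-biased liver genes of the list, 19 of 23 were higher in females under 12:12 and 14 of 23 under CJL. Of all genes tested 2.01% and 0.87% were called higher. The list was chosen as female-biased with earlier results of these data known, so these counts are not an independent test. Cyp3a41b, a near copy of Cyp3a41a, was higher by 5.56 ± 0.43 under 12:12, and Cyp2a22, a gene of the CYP2A family, by 2.26 ± 0.28. Of the male-biased genes, 15 of 19 were lower in females under 12:12 and 13 of 19 under CJL, beside 1.67% and 1.05% of all genes called lower. Among them was Cyp2d9, a steroid hydroxylase gene, at -4.81 ± 0.49 under 12:12. None of the 18 genes of growth hormone signalling and its regulators passed under 12:12, and 1 was higher in females under CJL. Of the xenobiotic receptors and related cytochromes, 3 of 11 were higher and 2 lower in females under 12:12, and 1 was higher and 2 lower under CJL. Among the 10 hepatocyte markers 1, Serpina1c, was lower in females under 12:12 and none passed under CJL.

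None of the 7 genes passed the test for CJL against 12:12 with all libraries. Over both sexes 0.781% of all genes were called in either direction, in females 0.0%, in males 0.0118%, and in the test of whether the sexes differ in their response 0.0%. The largest difference over both sexes was that of Hao2, at 0.72 ± 0.33 (log2, SE; edgeR adjusted p = 0.555), followed by Cyp2a4 at -0.68 ± 0.30 (edgeR adjusted p = 0.512). At an unadjusted p under 0.05, 2 of the 7 genes differed over both sexes, 0 in females, 1 in males and 1 between the sexes. Among all genes there were 1353, 772, 1630 and 902 at that level. DESeq2 called 274 genes over both sexes, 55 in females, 94 in males and 0 between the sexes. The only one of the 7 genes it called was Hao2 in males, at 3.63 (DESeq2 adjusted p = 0.00164). In edgeR the difference of Hao2 in males was 3.50 ± 0.77 (adjusted p = 0.116), with 6 counts in all under 12:12 and 50 under CJL, 30 of them from male 8. Cyp2b13 in males was at 1.16 ± 1.28 (edgeR adjusted p = 0.742), and without male 3 under 12:12 it passed at 5.80 (adjusted p = 0.0285), with male 8 under CJL then the only male left above 1 CPM. The medians of the 7 genes were 0.17 over both sexes, -0.02 in females and 0.19 in males, beside 0.02, -0.03 and 0.09 over all genes.

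Cyp2a4 was the gene whose lighting result turned on the libraries with high Cd79a. In males of low Cd79a it held 242, 267, 356 and 468 CPM under 12:12 and 87.2, 106 and 75.3 CPM under CJL, and these did not overlap. In that subset Cyp2a4 fell by 1.90 ± 0.31 on the log2 scale (edgeR adjusted p = 0.00336), where 0.475% of all genes were called lower. Over both sexes of the subset Cyp2a4 fell by 1.08 ± 0.24 (edgeR adjusted p = 0.0202), where 0.937% were called lower, and none of the other 6 genes passed in either test. The difference between the sexes in this response was 1.29 ± 0.37 (females minus males; edgeR adjusted p = 0.461). With all libraries but male 8 under CJL the fall in males was 1.97 (adjusted p = 0.0347), against 0.74 with it (adjusted p = 0.624).

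Reads of Cyp2a4 can be shared with Cyp2a5, its neighbour in the same family, since 36.1% of the stretches of 50 bases in the Cyp2a4 transcript also occur in that of Cyp2a5. Cyp2a5 itself fell under CJL over both sexes, by 1.16 ± 0.23 (edgeR adjusted p = 0.0105), and was the only gene of the other lists to pass a lighting test. In the males of low Cd79a it held 1639 to 2114 CPM under 12:12 and 545 to 686 CPM under CJL. Per 100 counts of Cyp2a5 these 7 males held 12.7 to 22.1 counts of Cyp2a4, while females held 46.0 to 350.4. How the deposited counts split shared reads is not given in the sources used here, and its part in the fall of Cyp2a4 was not tested.

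In the 3 males with Cd79a of 8 CPM or more, the 7 genes divided into those that gained and those that did not. Cyp2b9 and Cyp2b13 were far above the other males in male 3 under 12:12 and male 8 under CJL, and Cyp2a4 was above all of them by less. Cyp3a41a and Sult2a1 were inside or below the range of the other males in all 3. Sult2a2 in male 3 and Hao2 in male 8 were also the highest males, at levels far under 1 CPM. Male 5 under 12:12, the third of these libraries, stood above the other 7 males for none of the 7 genes. Males 3 and 8 each stood above the other 7 for 4 of the 7 genes. Of all 14525 genes that reached 1 CPM in at least 1 library, 34.5%, 24.6% and 43.2% stood above in males 3, 5 and 8.

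Cd79a stood at 45.6 CPM in male 3 under 12:12, 26.2 in male 5 under 12:12 and 144 in male 8 under CJL, beside 1.28 to 2.42 CPM in the other 7 males. Against the median of those 7, Cyp2b9 was 35.1-fold higher in male 3 and 25.9-fold higher in male 8, which is 62.2% and 46.0% of the female median. In male 5 it was 2.01-fold higher, at 25.97 CPM, inside the 1.29 to 34.4 CPM of the 7. Cyp2b13 was 134-fold higher in male 3 and 212-fold higher in male 8, which is 12.7% and 20.1% of the female median, and male 5 lay inside the range of the 7. Cyp2b9 and Cyp2b13 thus rose in the same libraries but came to different fractions of the female level. The part of the promoter windows shown above was not tested. Cyp2a4 was 2.24-fold higher in male 3 and 2.82-fold higher in male 8. Against the other males of the same lighting it was 1.74-fold and 7.83-fold higher, since the 3 other males under CJL were low.

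**Figure D3:**
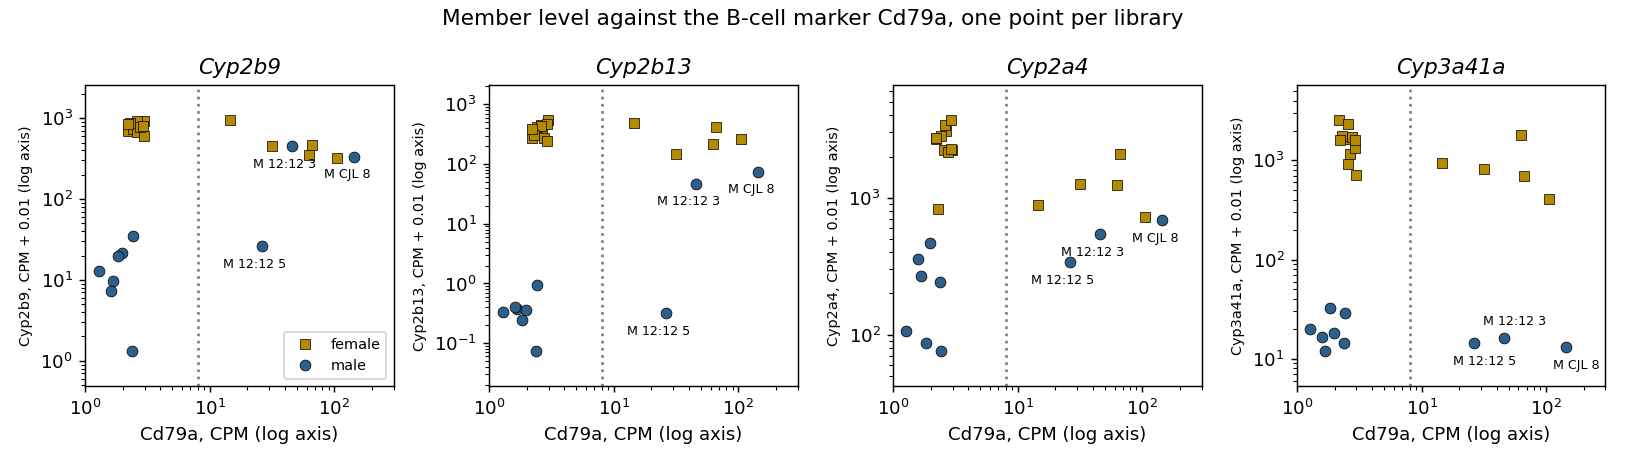
Level of Cyp2b9, Cyp2b13, Cyp2a4 and Cyp3a41a against that of the B-cell marker Cd79a, both in CPM on log axes, with 1 point per library (squares, 16 females; circles, 10 males; dotted line, 8 CPM of Cd79a). Males 3 under 12:12 and 8 under CJL rise to 454 and 336 CPM of Cyp2b9 while male 5 under 12:12 stays at 25.97, and for Cyp3a41a all 3 stay between 13.1 and 16.3 CPM.

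The remaining genes stayed near the male level. Cyp3a41a held 16.3, 14.2 and 13.1 CPM in males 3, 5 and 8, inside the 11.8 to 32.2 CPM of the other males. Male 8 was, however, below the 19.7 to 32.2 CPM of the other males under CJL. Sult2a1 had no count in any of the 3 libraries, which allows at most 0.0661 CPM, beside a female median of 321 CPM. Sult2a2 had 3 counts in male 3 and none in males 5 and 8. Hao2 had 1 count in male 3, none in male 5 and 30 in male 8, or 0.635 CPM in the last, which is 1.63% of the female median. Among relatives of these genes, Cyp2b10, a drug-inducible CYP2B gene, held 53.5, 52.0 and 61.7 CPM in males 3, 5 and 8, inside the 10.9 to 123 CPM of the others. Males 3 and 5 were, however, above the 10.9 to 38.1 CPM of the other males under 12:12. Cyp2a5 held 929, 2253 and 854 CPM beside 545 to 2114 CPM, so that male 5 was the highest of the 10 and males 3 and 8 were inside the range.

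Read sharing between Cyp2b9 and Cyp2b13 was limited, with 10.8% of stretches of 50 bases in common and 1.18% of those of 100 bases. Per 100 counts of Cyp2b9 the females held 30.0 to 91.6 counts of Cyp2b13. The low males with enough counts held 1.15 to 5.37, and males 5, 3 and 8 held 1.17, 10.4 and 22.3. Per 100 counts of Cyp2a5, Cyp2a4 held 58.4 counts in male 3 and 80.0 in male 8, above the 12.7 to 22.1 of the low males, while male 5 held 15.1. For Cyp3a41a and Cyp3a41b 93.7% of stretches were shared, so their counts are uncertain as separate genes, and Cyp3a41b also stayed at 17.6 to 25.2 CPM in the 3 males. Cyp3a11, an abundant CYP3A gene, held 5350, 4324 and 3747 CPM in males 3, 5 and 8, beside 3191 to 6797 CPM in the others. The males ranked in nearly the same order for Cyp3a41a as for Cyp3a11. Read sharing between these genes was not measured, and its part in the male counts of Cyp3a41a was not tested. For Sult2a1 29.5% of stretches occurred in Sult2a2, while Hao2 shared none with Hao1.

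In the fitted comparison of males by Cd79a, with lighting as a covariate, 3 of the 7 genes rose and none fell, against 16.6% of all genes called higher. The 7 genes and the 8 CPM split were chosen with earlier results of these data known, so these p-values are descriptive. Cyp2b13 rose by 6.47 ± 0.74 (log2, SE; edgeR adjusted p = 7.45e-07) and Cyp2b9 by 4.05 ± 0.56 (edgeR adjusted p = 8.07e-06). Cyp2a4 rose by 1.17 ± 0.37 (edgeR adjusted p = 0.0206), a call that was lost without male 8 under CJL (0.58, adjusted p = 0.469) and without the lighting term (0.98, adjusted p = 0.0874). Cyp3a41a was at -0.54 ± 0.33 (edgeR adjusted p = 0.232), Hao2 at 1.24 ± 0.82 (0.268) and Sult2a2 at 0.50 ± 1.26 (0.799), and Sult2a1 rests on 3 counts in all. The median of the 7 was 1.17, beside -0.03 over all genes. Because male 5 did not gain, these fold changes average 2 libraries that rose with 1 that did not. Without male 5 Cyp2b13 rose by 7.07, and without male 3 Cyp2b9 rose by 3.02 (adjusted p = 0.000373).

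In the 5 females with high Cd79a no member rose, and 2 fell, against 10.4% of all genes called lower. Cyp3a41a was at 408, 689, 944, 1803 and 825 CPM in female 6 and 7 under 12:12 and female 2, 5 and 6 under CJL, beside 715 to 2577 CPM in the other 11. It fell by 1.05 ± 0.27 (edgeR adjusted p = 0.00441), although the ranges overlapped. Cyp2a4 was at 719.6, 2082, 881, 1247 and 1263 CPM in the same order, beside 828 to 3716 CPM. It also fell by 1.05 ± 0.32 (edgeR adjusted p = 0.0143), a call lost without female 6 under 12:12 (-0.81, adjusted p = 0.0813) and at a Cd79a threshold of 16 CPM (-0.93, adjusted p = 0.0526). Cyp2b9 was at 323, 465, 958, 349.7 and 451 CPM in these libraries, with 4 of the 5 below the 604 to 931 CPM of the other females and 1 above. Its difference was -0.88 ± 0.48 (edgeR adjusted p = 0.179) and that of Cyp2b13 was -0.49 ± 0.54 (0.547). The other 3 genes did not pass, although Sult2a1, at -0.52, passed at -0.99 without female 2 under CJL (adjusted p = 0.00659) and at -1.03 with the threshold of 16 CPM, which moves that library to the other class (adjusted p = 0.00575). The median was -0.52, beside -0.01 over all genes. The B-lineage list summed to 141 to 736 CPM in these 5 females and to 37.9 to 64.6 CPM in the other 11, and its part in the falls was not tested.

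The difference between the sexes in this comparison, males minus females, passed for 3 of the 7 genes, against 0.201% of all genes called higher. As for males alone, the genes and the 8 CPM split were chosen with earlier results of these data known. The p-values given here and for females above are therefore descriptive. It was 6.96 ± 0.95 for Cyp2b13 (edgeR adjusted p = 0.00076), 4.93 ± 0.77 for Cyp2b9 (edgeR adjusted p = 0.00189) and 2.22 ± 0.48 for Cyp2a4 (edgeR adjusted p = 0.043). When libraries were left out in turn, Cyp2a4 passed in only 4 of 26 fits, and its difference was 1.58 without male 8 under CJL (adjusted p = 0.509). The smallest difference of Cyp2b13 was 6.14, without male 8 (adjusted p = 0.0248), and that of Cyp2b9 3.95, without male 3 (adjusted p = 0.0145). The median over the 7 genes was 1.75, beside -0.02 over all genes.

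The gain in males 3 and 8 extended to other female-biased genes. Of the 22 on the list that reached 1 CPM in at least 1 library, 17 stood above all 7 other males in male 3, 16 in male 8 and 7 in male 5, beside 34.5%, 43.2% and 24.6% of all 14525 such genes. Slc22a26, an organic anion transporter gene, held 246 CPM in male 3, 0.974 in male 5 and 199 in male 8, beside a median of 0.898 in the other males and 257 in females. Cyp2c69, a CYP2C gene, held 324, 13.6 and 492.7 CPM beside a median of 12.7 in the other males. In the fit 14 of the 23 genes tested rose in males with high Cd79a, beside 16.6% of all genes, and none fell. Slc22a26 rose by 7.26 ± 0.66 and Cyp2c69 by 3.96 ± 0.50. In females 6 of 23 fell, beside 10.4% of all genes, and none rose. The sexes differed for 13 of 23, all higher in males, beside 0.201% of all genes. The gene lists and the 8 CPM split were chosen with earlier results of these data known. The counts here and for the lists below are therefore descriptive.

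Male-biased genes went the other way in the same 2 libraries. All 19 that reached 1 CPM stood below the other 7 males in male 3 and in male 8, and 8 did in male 5, beside 14.3%, 19.5% and 4.69% of all genes. Cyp7b1, an oxysterol hydroxylase gene, held 21.4 CPM in male 3, 183 in male 5 and 22.3 in male 8, beside 155 to 257 CPM in the other males and a female median of 22.1. Gstp1, a glutathione transferase gene, held 266, 867 and 289 CPM beside 841 to 1661. C6, a complement gene, held 45.1, 247 and 55.9 CPM beside 192 to 342. In the fit 11 of 19 fell and none rose, beside 11.5% of all genes called lower. On the log2 scale Gstp1 fell by 1.44 ± 0.28, C6 fell by 1.501 ± 0.36 and Cyp7b1 fell by 1.75 ± 0.46. In females 1 of 19 rose and 2 fell, beside 17.6% and 10.4% of all genes. The list summed to 606, 621, 1179, 2946 and 584 CPM in females 6 and 7 under 12:12 and 2, 5 and 6 under CJL, against 2178 to 3822 CPM in the other 11, so 4 of the 5 lay below all of these. The difference between the sexes passed for 2 of 19, both lower in males, beside 0.0237% of all genes.

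**Figure D4:**
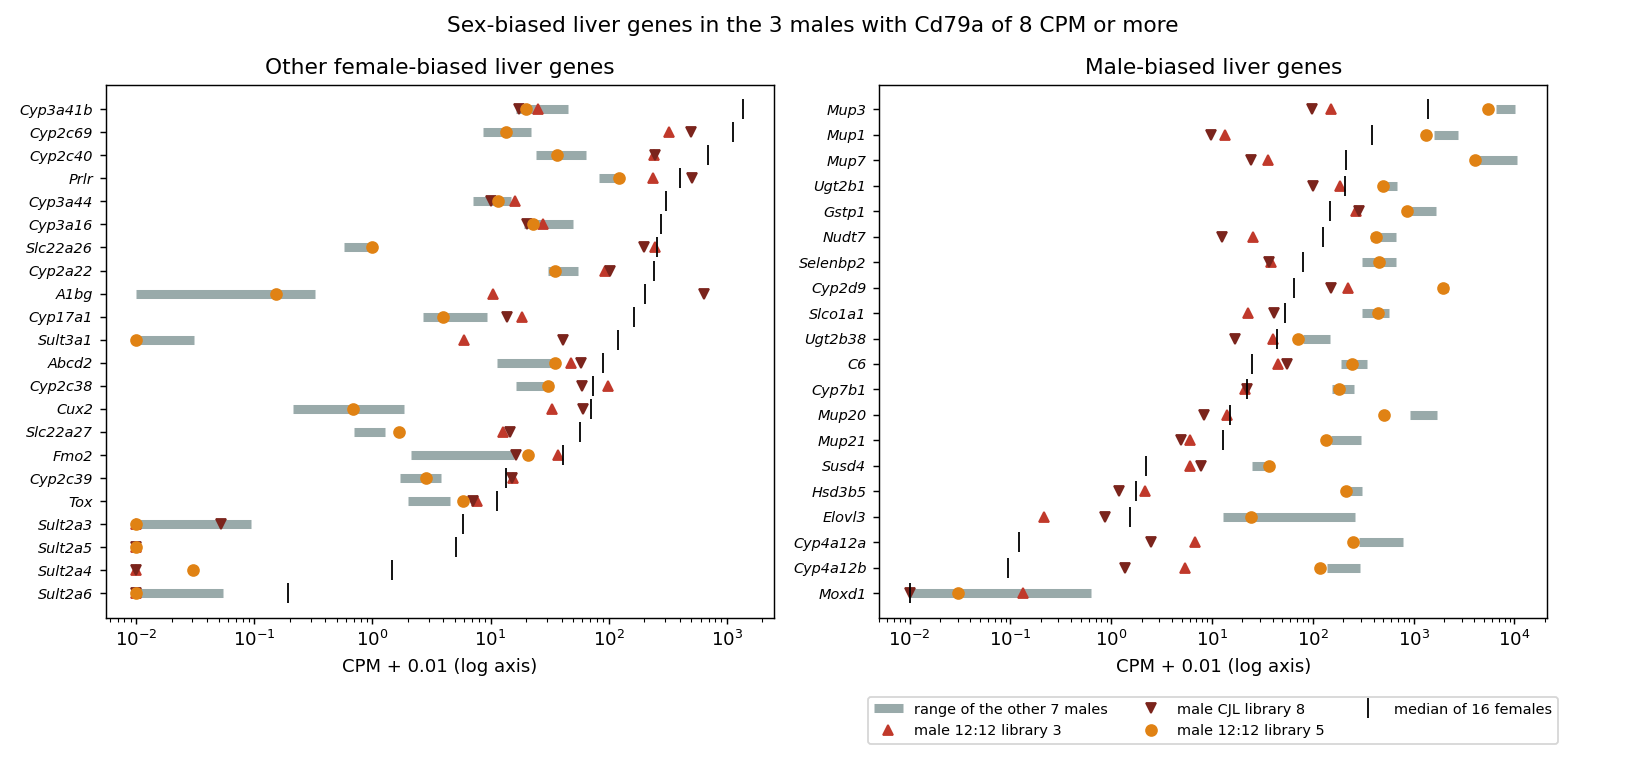
CPM plus 0.01 on a log axis of 22 of the other female-biased genes (left) and the male-biased genes (right) in the 3 males with Cd79a of 8 CPM or more, beside the range of the other 7 males (grey bars) and the median of 16 females (vertical ticks). Male 3 under 12:12 and male 8 under CJL lie toward the female median for most genes, as for Slc22a26 at 246 and 199 CPM, and male 5 under 12:12 lies at or near the grey bars for most.

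Among the 18 genes of growth hormone signalling and its regulators, 2 rose and 3 fell in males with high Cd79a, shares near the 16.6% and 11.5% of all genes called higher and lower. Cux2, the female-specific regulator, held 33.02 CPM in male 3, 0.670 in male 5 and 60.4 in male 8, beside 0.205 to 1.83 CPM in the other males and a female median of 70.9. It rose by 5.26 ± 0.69 (edgeR adjusted p = 4.7e-06). Ezh2, a histone methyltransferase gene that dividing cells express, rose by 2.38 ± 0.34 and held 18.8, 11.1 and 55.7 CPM beside 3.61 to 7.03. Foxa1, a hepatocyte factor gene, fell by 1.09 ± 0.35, Igf1, a growth hormone target, by 0.49 ± 0.16, and Bcl6 by 2.31 ± 0.86 (edgeR adjusted p = 0.0474). Bcl6 held 3.89, 10.05 and 4.04 CPM beside 10.02 to 59.7 CPM in the other males. It was named after its values were seen, to complete the 3 that fell. In females 1 of the 18 rose and 4 fell, beside 17.6% and 10.4% of all genes, and Cux2 was at -0.28 ± 0.51. The difference between the sexes passed for 1 of the 18, Cux2, which the list of female-biased genes also holds. Of the 11 xenobiotic receptors and related genes, 2 rose in the males, Cyp2b19 and Cyp2b23, both of the CYP2B family and under 1 CPM in those libraries, and 1 fell, Hao1, a relative of Hao2. The shares that rose and fell in males were near those of all genes given above. In females 2 of the 11 fell, beside 10.4% of all genes, and 1 differed between the sexes, beside 0.201%. Growth hormone itself was not measured.

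Markers of other cells moved with these libraries. The B-lineage list summed to 190.4 to 1319 CPM in the 3 males and 27.8 to 48.4 CPM in the other 7, with 14 of 14 genes above all others in each of the 3, also in male 5. Of these 14, Cd79a was placed there by the rule that set the libraries apart. The proliferation list summed to 142 to 844 CPM beside 13.1 to 17.97 CPM, with 12 of 12 genes above in each. The macrophage list summed to 457 to 1491 CPM beside 239 to 423 CPM, with 2 of 7 genes above in male 3 and 7 of 7 in males 5 and 8. Of all 14525 genes that reached 1 CPM, 34.5%, 24.6% and 43.2% stood above in males 3, 5 and 8. The macrophage genes did not exceed that share in male 3. No gene of these lists was at 0 in the 3 libraries. The hepatocyte list summed to 182698 to 271437 CPM beside 156183 to 176906 CPM, with Alb called higher by 0.43 ± 0.13 and Serpina1c and Ttr lower. In females 1 of its 10 genes fell, and none differed between the sexes. The acute phase list summed to 8643 to 14733 CPM beside 8393 to 12420.5 CPM, and 2 of its 10 genes rose in each sex. Of all genes 16.6% were called higher in males and 17.6% in females, and 11.5% and 10.4% lower. The acute phase shares called in the fit were thus near those of all genes. By library, 8 of the 10 acute phase genes stood above all 7 other males in male 3, 0 in male 5 and 5 in male 8. Below all 7 stood 0, 3 and 2 of them, beside 14.3%, 4.69% and 19.5% of all genes. In the fit all 14 B-lineage genes, with Cd79a again fixed by the rule, 12 proliferation and 7 macrophage genes rose in males and in females. In bulk tissue fewer cells of a type and less RNA per cell cannot be told apart, and the part of these cells in the gain of Cyp2b9 and Cyp2b13 was not tested.

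Within groups, the genes outside the set whose level followed the mean of the 7 most closely over the 26 libraries were Acot3, Slc16a7, Prlr, Mgst3 and Ugt1a5. Their Pearson correlations on the log2 scale, after removing group means, were 0.86, 0.81, 0.80, 0.79 and 0.78. The 7 genes themselves, each of them part of that mean, ran from 0.36 for Cyp3a41a to 0.77 for Cyp2b9. These values are descriptions, and B-cell content varies among the same libraries. The gains in males 3 and 8 and the near-zero male counts of Sult2a1, Sult2a2 and Hao2 also enter that mean. Prlr, itself on the list of female-biased genes, held 236 CPM in male 3 and 502 in male 8, beside 82.8 to 116 CPM in the 7 males of low Cd79a.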

How the data were processed

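Liver RNA was made into stranded mRNA libraries, per the labels' protocols, and 26 libraries were analysed. The authors' deposited table holds expected counts per gene name and library, not normalised. The submitters' processing notes name STAR, DESeq2 and mm10; no source used here states the counting tool, annotation, strand setting or read length. A share of 45.8% of its cells held 0.015, which stands for 0 and was set to 0, and 1.44% were not whole (tolerance 1e-06) and were rounded. Its 36930 lines held 36883 names, and lines sharing a name were summed. A normalised table and a table of comparisons were not used here. CPM was the count divided by the column sum times 1e6. No per-library column was unmapped. Library totals were 45364552 to 50242014. Within a group no libraries were copies, since chi-square per degree of freedom was at least 31.5.

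Genes were kept by filterByExpr of edgeR 4.0.16 with a count minimum of 10, scaled by TMM, and tested with quasi-likelihood F tests (R 4.3.3). P-values were adjusted by Benjamini-Hochberg over the 16892 genes, with a threshold of 0.05. Standard errors are the log2 fold change divided by the square root of F. Sex and lighting within sex were tested over 4 group means, lighting over both sexes with sex as a covariate, and Cd79a classes within sex with lighting as a covariate. P-values measure the spread between these libraries. Alternatives were DESeq2 1.42.0, its size factors, no filter, a replicate block, other Cd79a thresholds, Cd79a as a covariate, no lighting term, the libraries of low Cd79a alone, and leaving out each library. The scripts were tested on simulated data.

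The 7 genes, the 8 CPM threshold and the gene lists were chosen with earlier results of these data known. Genes named from a list are the 4 with the smallest p in the male Cd79a comparison or in the sex comparison under 12:12, and genes of similar pattern are the 5 highest correlations at a mean of at least 1 CPM. Of 134 list entries 132 were in the table, and 1 of the female-biased genes is counted but not reported here. Transcript stretches and gene coordinates come from GENCODE on GRCm38, and promoters from RefSeq on GRCm38.p6.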

Additional observations from a re-analysis of the deposited data

Results flagged for a closer look

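In 9 of 27 groups of 4 to 8 libraries tested, 1 library stood apart by the gap to its nearest neighbour relative to the group's range. The rule flags about 1 in 20 groups of normally distributed values, a rate that need not hold for CPM. It always flags a group in which only 1 library was counted, as for Sult2a1 and Sult2a2 below. Several flags fall on male 3 under 12:12 and male 8 under CJL, already set apart by Cd79a. Cyp2b9 was at 454 CPM in male 3 under 12:12, with the next male at 25.97 CPM, and at 336 CPM in male 8 under CJL, with the next at 34.4 CPM. Cyp2b13 was at 47.1 CPM and 74.7 CPM in the same libraries, with the next males at 0.389 and 0.936 CPM. Cyp2a4 was at 683 CPM in male 8 under CJL, with the next at 106 CPM.

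Hao2 was at 63.6 CPM in female 2 under 12:12, with the next at 40.3 CPM. At the floor of detection, Hao2 was at 0.0882 CPM in male 6 under 12:12, Sult2a1 at 0.0609 CPM in male 2 under 12:12 and Sult2a2 at 0.0406 CPM in male 6 under CJL. Those last 3 values rest on 4, 3 and 2 counts.

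The difference between the sexes in the comparison by Cd79a passed the test for Cyp2b13 at 6.96, for Cyp2b9 at 4.93 and for Cyp2a4 at 2.22, on the log2 scale and higher in males. These tests are descriptive, since the genes and the split were chosen with earlier results of these data known.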

How the results depend on the processing

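Of 9 counts of genes called, 52 of 57 values under settings other than leaving out a library stayed within 1.5 times. The exceptions were 1 gene for lighting over both sexes without the high Cd79a libraries, 1 for lighting in males there and by DESeq2, and, with the replicate block, 1 for Cd79a in females and 0 for the difference between the sexes. Replicate numbers did not pair the libraries, since correlations of same-numbered libraries ran from -0.47 to 0.60 and only 1 of 20 was matched best by its own number. With the replicate block Cyp2b9 was called under 12:12 at 4.31 (edgeR adjusted p = 0.0183). The block left the difference between the sexes at 4.81 for Cyp2b9, 5.98 for Cyp2b13 and 1.96 for Cyp2a4, with adjusted p from 0.689 to 1. The Cd79a call of Cyp2a4 was lost in both sexes. The cause was not tested.

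Directions that turned belonged to values that did not pass. The lighting difference of Cyp2b13 over both sexes was -0.11 with the block, -0.18 without the high Cd79a libraries and -0.25 with Cd79a as a covariate. Without those libraries the lighting differences of Sult2a1 and Sult2a2 were 0.028 and 0.045 over both sexes, 0.050 and 0.041 in females, and Sult2a2 was 0.33 in males and -0.29 between sexes. The difference of Cyp2b9 between sexes was 0.0018 without a filter.

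Leaving out each library, members called were 0 to 1 for lighting in males and 1 to 3 for Cd79a in females. Log2 ranges of lighting differences that crossed 0 were, over both sexes, -0.38 to 1.10 for Cyp2b9, -1.16 to 1.30 for Cyp2b13, -0.19 to 0.11 for Sult2a1 and -0.17 to 0.057 for Sult2a2. In females they were -0.15 to 0.15 for Sult2a1 and -0.16 to 0.084 for Sult2a2. In males they were -1.75 to 2.82 for Cyp2b9, -3.81 to 5.80 for Cyp2b13 and -3.02 to 0.25 for Sult2a2. Between sexes they were -2.65 to 1.93 for Cyp2b9, -6.20 to 3.42 for Cyp2b13, -0.19 to 1.32 for Cyp2a4, -0.0059 to 2.62 for Sult2a1 and -0.29 to 2.99 for Sult2a2. For Cd79a in males they were -2.48 to 0.0091 for Sult2a1, -2.61 to 1.14 for Sult2a2 and -2.51 to 2.29 for Hao2, and for its difference between sexes -1.95 to 0.53, -2.34 to 1.40 and -2.05 to 2.76. Fold changes of Sult2a1, Sult2a2 and Hao2 in males rest on few counts.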
